A study of Sus scrofa with 12 samples.

Results

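The oocyte-secreted growth factors GDF9, BMP15 and BMP6 and the receptor tyrosine kinase KIT were followed through in vitro maturation of porcine oocytes. These genes were chosen by symbol, and all 4 were found among the 31908 gene identifiers measured. The RNA-seq data comprise 12 libraries of denuded oocytes (Sus scrofa), with 4 libraries at each of 0h, 22h and 46h of maturation. Every library held a pool of oocytes freed of their cumulus cells by hyaluronidase and pipetting. By the authors' methods the oocytes were fully grown and came from antral follicles of prepubertal gilts collected at a slaughterhouse. The culture medium held porcine follicular fluid, EGF, PMSG and HCG. By the labels the groups differ only in hours, so that the 0h oocytes had no culture and the 46h oocytes had the longest. The submitters name these points GV, Pre-MI and MII, and their design text gives a slightly later hour for the middle point than the sample labels do. The labels do not say whether the replicates of a stage came from separate animals or cultures, so p-values measure only the spread between these libraries.

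GDF9 and BMP15 are secreted ligands of the TGF-beta superfamily that the oocyte makes and that act on the surrounding cumulus and granulosa cells, where they sustain growth, hold back luteinization and help the cumulus to expand. They act as homodimers and also together as a heterodimer. GDF9 signals through the type II receptor BMPR2 and the type I receptor TGFBR1 to SMAD2 and SMAD3, whereas BMP15 and BMP6 reach SMAD1, SMAD5 and SMAD9 through receptors such as BMPR1B and ACVR1. KIT sits on the oocyte surface, binds the KIT ligand made by granulosa cells, and signals through PI3K and AKT during follicle activation and oocyte growth.

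The sample titles name ovarian cells, whereas the authors describe denuded oocytes, so the cell type was checked against marker genes. The 8 oocyte markers with a symbol match summed to between 20899 and 33591 FPKM (fragments per kilobase of transcript, scaled to library size) over all libraries. BTG4 alone gave 13761 to 30934 FPKM of these sums, and it was highest at 46h. Of 15 matched cumulus and granulosa cell markers, VCAN, KITLG and STAR were above 1 FPKM on average, and the other 12, among them HAS2, PTX3, FSHR and LHCGR, had sums of 0 to 0.9 FPKM in the 0h libraries, 0.19 to 0.8 FPKM in those of 22h and 0.03 to 0.27 FPKM in those of 46h. All 15 together gave 45.0 to 98.4, 61.4 to 93.8 and 121.1 to 155.7 FPKM in the same order. In pools of this kind a change in RNA per cell and a change in the share of a cell type cannot be told apart. 2 libraries, 0h replicate 4 and 22h replicate 1, stood apart from their stages in the same direction. Their deviations from the stage means had r = 0.53 across 7013 genes. Their mean correlations with their own stage were its lowest (0.95 and 0.964), though 0h replicate 2 was close to the latter at 0.967. They were picked after the values were seen, and each was highest in BMP15 and lowest in GDF9 within its stage. Fits without them thus remove spread of these genes by selection and are not an independent check. Calls of the 4 genes that change without them are given both ways. The number of genes at 1 FPKM or more was 6682 to 7895 at 0h and 22h and 5819 to 6076 at 46h.

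GDF9 was abundant through the first stages and far lower in the mature oocytes. At 0h it measured 1451, 1390.6, 806 and 287 FPKM in replicates 1 to 4. At 22h it measured 289, 690.3, 1260.3 and 1223 FPKM, and at 46h it measured 36.1, 40.6, 33.3 and 41.0 FPKM. All 4 libraries of 46h lay far below every library of the earlier stages, while the libraries of 0h and 22h covered the same range.

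Between 22h and 46h, GDF9 fell by 4.27 on the log2 scale of FPKM + 1 (SE 0.499, 95% interval -5.34 to -3.2), a 19.3-fold drop with a limma adjusted p of 7.64e-06. Between 0h and 46h it fell by 4.42 (95% interval -5.49 to -3.35), a 21.4-fold drop with a limma adjusted p of 2.71e-06. From 0h to 22h the difference of -0.15 was within the replicate spread (95% interval -1.22 to 0.92, limma adjusted p = 0.84). A gene was called where the adjusted p was under 0.05 and the fold change exceeded 1.5, and by this rule 32.6% of all 7013 genes tested were called lower at 46h than at 22h, and 39.1% lower at 46h than at 0h. The median gene fell by 0.26 and by 0.25 in these comparisons on the deposited scale, and by 0.34 and 0.35 as TPM. It rose instead by 0.02 and 0.06 with median-of-ratios scaling and by 0.21 and 0.37 with quantile normalization. With the GC trend removed it rose by 0.05 and 0.07. The decline of GDF9 was many times any of these shifts in size. It stayed between -4.93 and -3.9 and was called in every alternative run. The order of its levels was therefore 0h and 22h, which did not differ beyond their spread, and then 46h.

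The RefSeq model of GDF9 (ENSSSCG00000014288) lies on the minus strand at chr2:135181494-135184451 of Sscrofa11.1, with 2 exons that hold 1335 coding bases and no annotated UTR. No other gene overlapped it.

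BMP15 was the most abundant of the 4 genes in every library and followed another course. At 0h it measured 2177, 1737, 2902 and 5492 FPKM in replicates 1 to 4. At 22h it measured 8534, 4534, 5087 and 4303 FPKM, and at 46h it measured 2418, 1980.3, 2793 and 2127 FPKM. The libraries of 22h all exceeded those of 46h, but the highest library of 0h exceeded 3 of the 4 libraries of 22h. Ranked among all identifiers within each library, BMP15 stood between place 18 and place 59 throughout, whereas GDF9 moved from places 68 to 294 at 0h to places 1096 to 1269 at 46h.

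BMP15 was 1.94-fold higher at 22h than at 0h, with a log2 fold change of 0.95 (SE 0.312, 95% interval 0.28 to 1.62, limma adjusted p = 0.0315), in a comparison in which 7.84% of genes tested were called higher and 18.9% lower. This call was lost without any of 5 libraries (0h replicates 1, 2 and 3, and 22h replicates 1 and 3), where the limma adjusted p was 0.0501 to 0.0953 and the log2 fold change 0.73 to 0.98. It was also lost with no filter on low values, with quantile normalization and when only those groups were fitted, while without both libraries that stood apart the log2 fold change was 1.06 with a limma adjusted p of 0.0011. BMP15 then fell 2.34-fold from 22h to 46h, by 1.22 on the log2 scale (95% interval -1.89 to -0.55, limma adjusted p = 0.00505). The level at 46h did not differ from that at 0h beyond the spread (log2 fold change -0.27, 95% interval -0.94 to 0.4, limma adjusted p = 0.469). The levels thus ran from 22h down to 0h and 46h, and the last pair did not differ beyond their spread.

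The RefSeq model of BMP15 (ENSSSCG00000012310) lies on the plus strand at chrX:44613122-44620575 of Sscrofa11.1, with 2 exons, 1209 coding bases and a 3' UTR of 1213 bases, and no other gene overlapped it. The cDNA of these libraries was started from the poly(A) tail by an oligo-dT primer. The 3' end of the BMP15 model and a genomic stretch beyond the GDF9 stop codon are therefore shown. The hexamer AATAAA, the sequence of the polyadenylation signal, is in capitals. The BMP15 signal ends its transcript model at chrX:44620546-44620575 on the plus strand and starts 20 bases before the last base. The GDF9 model stops at its stop codon, and the first AATAAA in the genome beyond it starts 387 bases downstream, within chr2:135181090-135181119 on the minus strand. The 3' end of the GDF9 transcript is not annotated, and use of this AATAAA was not tested.
BMP15 transcript end: tgtgttgcaAATAAAtcatttttttgcgtt
GDF9 beyond the stop codon: atttaatggaagAATAAAttcctgtgagtg
Of 17413 RefSeq transcript models, 53.5% had AATAAA in their last 40 bases. A loss of mRNA and a loss of its poly(A) tail cannot be told apart in oligo-dT primed libraries.

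**Figure D1:**
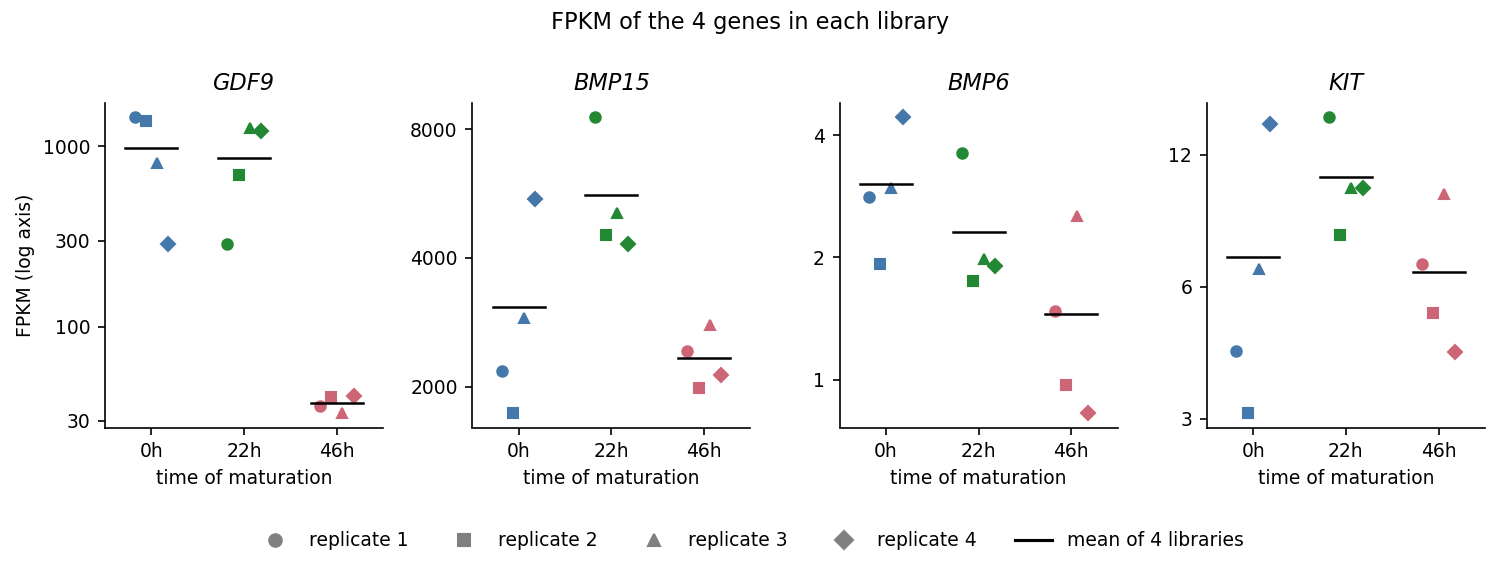
FPKM (log axis, a different scale in each panel) of GDF9, BMP15, BMP6 and KIT in each library at 0h, 22h and 46h, with a point shape for each replicate and a bar for the mean of 4 libraries. The 46h libraries of GDF9 lie between 33.3 and 41.0 FPKM, below all 8 earlier libraries, and those of BMP15 lie between 1980.3 and 2793 FPKM, below all 4 libraries of 22h.

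GDF9 and BMP15 share their receptors' type II subunit and are thought to act most strongly in combination, and the balance of their mRNAs was compared within each library, where differences in library scale cancel. GDF9 came to 66.7%, 80.0%, 27.8% and 5.22% of BMP15 in the 4 libraries of 0h. It came to 3.39%, 15.2%, 24.8% and 28.4% at 22h, and to 1.49%, 2.05%, 1.19% and 1.93% at 46h. BMP15 exceeded GDF9 in 12 of 12 libraries, and the shares at 46h lay below all earlier ones. These shares also rest on the transcript lengths used to make the FPKM values.

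As a geometric mean, BMP15 exceeded GDF9 3.37-fold at 0h, 7.24-fold at 22h and 61.4-fold at 46h. The log2 ratio of GDF9 to BMP15 differed by -3.08 at 46h against 22h and by -4.19 at 46h against 0h, each with an exact two-sided permutation p of 0.0286, which is the smallest that 4 against 4 libraries allow, and an adjusted p of 0.0429 over 3 comparisons. The difference between 0h and 22h, of -1.1, had an exact permutation p of 0.4. With any 1 of the 46h libraries left out the adjusted p of either call was 0.0857 (exact permutation test), with differences of -3.19 to -2.93 and -4.3 to -4.04. Without the libraries that stood apart the differences were -3.76 and -5.02, each with an adjusted exact permutation p of 0.0429.

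**Figure D2:**
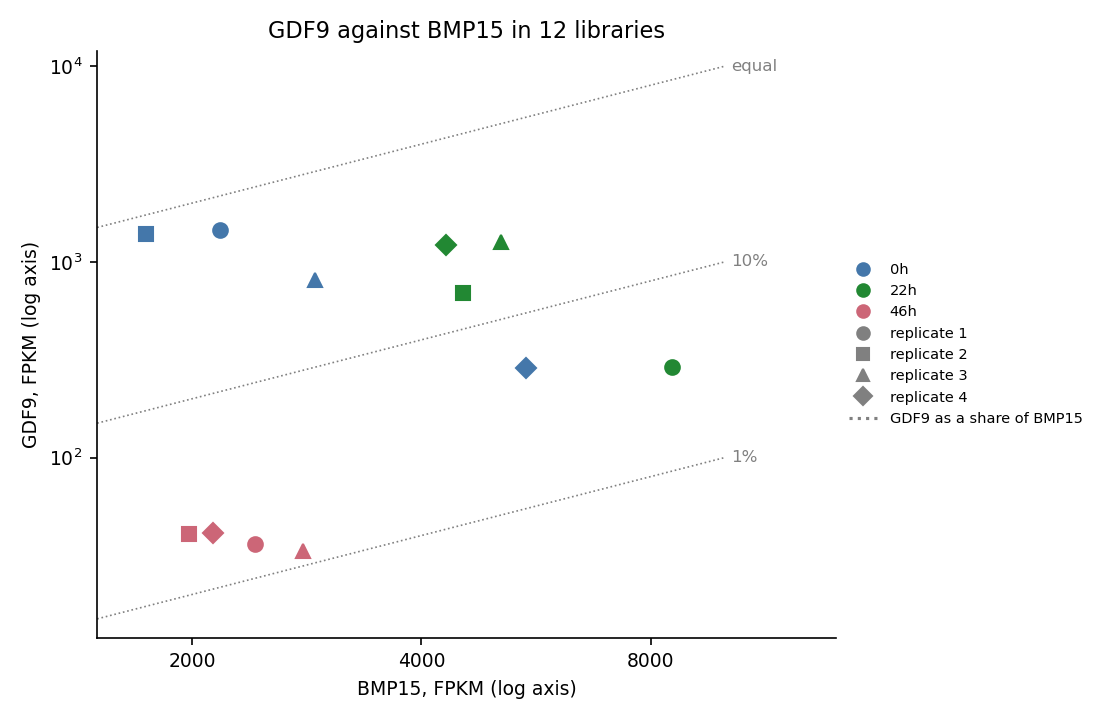
GDF9 against BMP15 (FPKM, both axes log) in 12 libraries, coloured by time of maturation and shaped by replicate, with dotted lines where GDF9 equals BMP15 or is 10% or 1% of it. The 46h libraries lie between 1.19% and 2.05%, 0h replicate 4 and 22h replicate 1 lie at 5.22% and 3.39%, and the other 6 libraries lie between 15.2% and 80.0%.

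BMP6, which shares the SMAD1 and SMAD5 branch with BMP15, was a low transcript throughout. It measured 2.82, 1.93, 2.97 and 4.42 FPKM at 0h, 3.61, 1.75, 1.98 and 1.91 FPKM at 22h, and 1.48, 0.97, 2.53 and 0.83 FPKM at 46h. The ranges of neighbouring stages overlapped, and so did those of 0h and 46h. BMP6 was 1.66-fold lower at 46h than at 0h by limma (log2 fold change -0.73, SE 0.245, 95% interval -1.26 to -0.21, adjusted p = 0.0176).

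This call depended on the processing. BMP6 had a GC content of 66.95% against 48.4% to 50.19% for the other 3 genes, and with the GC trend of each library removed the log2 fold change turned to 0.56 (limma adjusted p = 0.0192), which is under the fold threshold. It was -0.47 with median-of-ratios scaling (limma adjusted p = 0.0612), -0.06 with quantile normalization and -0.58 without the libraries that stood apart, and no call was made under any of these. The differences of -0.28 at 22h against 0h (95% interval -0.81 to 0.24, limma adjusted p = 0.405) and of -0.45 at 46h against 22h (95% interval -0.98 to 0.08, limma adjusted p = 0.147) were not called. In order of level BMP6 ran 0h, 22h and 46h, and no neighbours in that order differed beyond their spread. The RefSeq model (ENSSSCG00000001027) lies on the plus strand at chr7:5058817-5208868 of Sscrofa11.1 with 7 exons.

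KIT was expressed at a modest level and no change of it was called. It measured 4.28, 3.1, 6.59 and 14.1 FPKM at 0h, 14.6, 7.88, 10.1 and 10.1 FPKM at 22h, and 6.76, 5.22, 9.74 and 4.26 FPKM at 46h. The 22h libraries included the highest value and 3 of the 4 0h libraries lay below all of them, but 0h replicate 4 reached nearly the top. The log2 fold change was 0.69 at 22h against 0h (95% interval -0.05 to 1.44, limma adjusted p = 0.141), -0.66 at 46h against 22h (95% interval -1.4 to 0.08, limma adjusted p = 0.131) and 0.03 at 46h against 0h (95% interval -0.71 to 0.78, limma adjusted p = 0.938).

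Whether KIT was called higher at 22h depended on 0h replicate 4. Without that library the log2 fold change was 1.06 (limma adjusted p = 0.00866), without both libraries that stood apart it was 0.91 (limma adjusted p = 0.0194), and with quantile normalization of all libraries it was 0.85 (limma adjusted p = 0.0366). The difference between 46h and 22h met the threshold without 0h replicate 4, which moved the shared estimate of spread, and when only 22h and 46h were fitted, where the log2 fold change of -0.66 had a limma adjusted p of 0.0396 and 0.0373. KIT was thus highest at 22h, and the levels of 0h and 46h could not be put in an order, with no neighbouring stages that differed beyond their spread. The RefSeq model (ENSSSCG00000008842) lies on the plus strand at chr8:41402334-41492306 of Sscrofa11.1, with 22 exons and a 3' UTR of 774 bases.

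**Figure D3:**
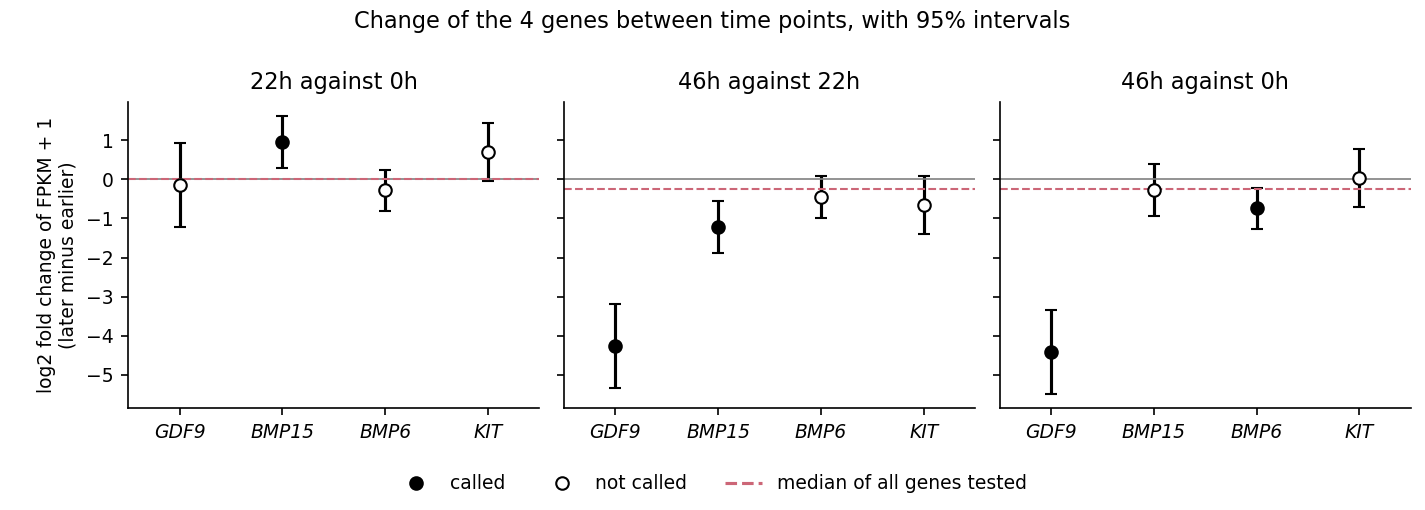
Log2 fold change of FPKM + 1 (later minus earlier) of the 4 genes in each comparison with 95% intervals from limma, filled where called and open where not, with the median of all 7013 genes as a dashed line. GDF9 at -4.27 and -4.42 stands far below that median at 46h, and BMP15 rises by 0.95 and then falls by 1.22.

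Libraries of the same stage also differed in these genes, and in a shared way that was seen after the values were known. In 3 of 3 stages the library highest in BMP15 was the lowest in GDF9 and the highest in both KIT and BMP6. These were 0h replicate 4, 22h replicate 1 and 46h replicate 3. Within 0h, the highest library exceeded the lowest 5.06-fold in GDF9, 3.16-fold in BMP15 and 4.55-fold in KIT. Within 46h the range of GDF9 was 1.23-fold and that of BMP15 was 1.41-fold.

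Described over 12 libraries as deviations from the stage means, BMP15 and KIT had r = 0.93, BMP6 and KIT had r = 0.9 and GDF9 and BMP15 had r = -0.91. Without the pair of libraries that stood apart, over 10 libraries, these values were 0.88, 0.92 and -0.55. For the other 3 pairs, BMP15 and BMP6 had r = 0.86 with all libraries and 0.79 without that pair, GDF9 and KIT had -0.78 and -0.37, and GDF9 and BMP6 had -0.72 and -0.3. The points share their libraries, and each library deviates in many other genes too. The deviation of a library across genes had r = 0.297 with GC content in 0h replicate 4, -0.008 in 22h replicate 1 and 0.434 in 46h replicate 3, and the part of base composition in this pattern was not tested.

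The genes most like each member were sought among 3658 named genes averaging 5 FPKM or more, or 3659 for BMP6, by Pearson's r over the 12 libraries, which share stages and library scale. GDF9 was most like ZNF22, a zinc finger protein (r = 0.993), the oocyte transcription factor LHX8 (r = 0.988) and DECR1, an enzyme of mitochondrial fatty acid oxidation (r = 0.986). LHX8 averaged 95.1 FPKM at 0h, 98.8 at 22h and 22.0 at 46h, and ZNF22 averaged 12.5, 12.3 and 2.14. BMP15 was most like PRCC (r = 0.98), ODC1, the rate-limiting enzyme of polyamine synthesis (r = 0.955), and the N-terminal acetyltransferase NAA40 (r = 0.953). ODC1 averaged 154.4, 262.7 and 118.3 FPKM at 0h, 22h and 46h, the same order as BMP15.

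KIT was most like SSRP1, a subunit of the histone chaperone FACT (r = 0.973), the ubiquitin ligase ZNF598 (r = 0.972) and the transcription elongation kinase CDK9 (r = 0.969). Of these, CDK9 averaged 9.53 FPKM at 0h, 12.9 at 22h and 7.99 at 46h. BMP6 was most like PDRG1 (r = 0.915), malic enzyme ME1 (r = 0.904) and DCTN4, a dynactin subunit (r = 0.891). Its r values were the lowest of the 4 genes. By deviations from the stage means, the closest genes were others, except that SSRP1 was again near KIT (r = 0.966). GDF9 was then closest to RAD1, RBBP7 (r = 0.981 each) and NECAP1 (r = 0.98). RAD1 and RBBP7 had their highest means at 46h, and NECAP1 had its lowest there.

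The receptors of these ligands were present at low levels, and whether any was called depended on the processing and on the libraries kept. Of 14 TGF-beta superfamily receptors, 5 passed the filter of a mean of at least 1 FPKM, and 0 of 5 were called by limma in any of the 3 comparisons on the deposited scale, with an unadjusted p under 0.05 for 2 at 22h against 0h, 1 at 46h against 22h and 1 at 46h against 0h. Of all genes tested, 7.84% were called higher and 18.9% lower at 22h against 0h, 9.87% and 32.6% at 46h against 22h, and 16.8% and 39.1% at 46h against 0h. BMPR2, the type II receptor of both GDF9 and BMP15, ranged from 3.46 to 5.33 FPKM at 0h, from 6.64 to 7.35 at 22h and from 5.67 to 8.57 at 46h. The 22h libraries of BMPR2 all lay above those of 0h, with a log2 fold change of 0.51 (limma adjusted p = 0.0276) that was under the fold threshold. BMPR2 was called in that comparison without the 2 libraries that stood apart (0.59), as TPM without mitochondrially encoded genes (0.61), with a pseudocount of 0.1 (0.6) and after quantile normalization (0.68). At 46h against 0h, median-of-ratios scaling called BMPR2 alone (0.78), beside 29.2% of all genes called higher. Quantile normalization called 4 of the 5 higher there, under a scaling that called 41.0% of all genes higher. These were BMPR2 by 1.1, ACVR1B by 0.92, BMPR1B by 0.72 and ACVR1 by 0.61. Quantile normalization also called 2 of the 5 higher at 22h against 0h, beside 14.9% of all genes, and 1 of the 5 at 46h against 22h, near the 28.1% of all genes called higher there. ACVR1, a type I receptor of BMP6, averaged 9.73, 13.2 and 9.44 FPKM, and BMPR1B, a type I receptor of BMP15, averaged 2.73, 4.59 and 2.69 FPKM. TGFBR1, the type I receptor of GDF9, lay between 0.34 and 0.57 FPKM at 0h and 22h and between 0.03 and 0.12 FPKM at 46h, a difference from 22h with an unadjusted exact permutation p of 0.0286.

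Among the SMAD proteins, SMAD1 and SMAD5 of the BMP branch rose and SMAD2 fell by 46h. SMAD1 was 1.99-fold higher at 46h than at 22h (log2 fold change 1.0, limma adjusted p = 0.000199) and 2.88-fold higher than at 0h, ranging from 3.84 to 4.67 FPKM at 0h, from 4.98 to 7.9 at 22h and from 11.2 to 15.5 at 46h. SMAD5 was 1.62-fold higher at 46h than at 22h (limma adjusted p = 0.00634) and 2.39-fold higher than at 0h, with means of 13.0, 19.2 and 31.6 FPKM. SMAD2, which carries the signal of GDF9, averaged 14.6, 11.1 and 7.27 FPKM and was lower at 46h than at 0h (log2 fold change -0.83, limma adjusted p = 0.0139) with overlapping ranges, a call lost under median-of-ratios scaling or quantile normalization. Without the libraries that stood apart, SMAD2 was also called lower at 46h than at 22h (-0.64). Of 8 SMAD genes, 3 passed the filter, and SMAD3, SMAD4, SMAD6, SMAD7 and SMAD9 did not exceed 0.68 FPKM in any library. At 22h against 0h, 0 of the 3 that passed were called, beside 7.84% of all genes higher and 18.9% lower. SMAD1 and SMAD5 were called higher there with quantile normalization (0.7 and 0.72) and with a pseudocount of 0.1 (0.62 and 0.6). TPM without mitochondrially encoded genes also called both (0.63 and 0.66). These settings called 14.9%, 8.67% and 11.3% of all genes higher. SMAD1 was also called there without the libraries that stood apart (0.64). The comparison of 46h with 22h called 9.87% of all genes higher and 32.6% lower, and that of 46h with 0h called 16.8% higher and 39.1% lower, so that 1 of 3 lower in the latter was near the share of all genes.

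Regulators of that pathway included very abundant transcripts. ID3, an inhibitor of DNA binding that is a known target of BMP signalling, averaged 16188, 20102 and 26284 FPKM at 0h, 22h and 46h. It was 1.62-fold higher at 46h than at 0h (limma adjusted p = 0.000502), a call lost with quantile normalization. Its relatives did not share this level. ID1 lay between 0.44 and 1.97 FPKM, and ID2 and ID4 did not exceed 0.39 and 0.09 FPKM in any library. Activity of BMP signalling was not tested. SMURF2, a ubiquitin ligase that acts on SMADs and receptors, averaged 70.8, 132.4 and 131.2 FPKM and was 1.89-fold higher at 22h than at 0h (limma adjusted p = 0.00269). PPM1A, a SMAD phosphatase, was 1.62-fold higher at 46h than at 0h (limma adjusted p = 0.00422). USP15, a deubiquitinase, was lower at 22h than at 0h (log2 fold change -0.66, limma adjusted p = 0.011), a call lost with quantile normalization. Of 14 such genes 4 passed the filter, with 1 called higher and 1 lower at 22h against 0h, 0 called at 46h against 22h, where 3 had an unadjusted limma p under 0.05, and 3 called higher at 46h against 0h, beside 7.84% higher and 18.9% lower, 9.87% and 32.6%, and 16.8% and 39.1% of all genes in these comparisons. With median-of-ratios scaling 3 of the 4 were called higher at 46h against 22h, ID3 by 0.74, PPM1A by 0.78 and USP15 by 0.75, where 20.1% of all genes were called higher, and after quantile normalization 2 were, PPM1A and USP15, where 28.1% of all genes were.

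Most other ligands and antagonists did not pass the filter. Of 27 matched ligands of the superfamily, 12 were listed at 0 in every library and 2 passed the filter, BMP4 with means of 3.09, 4.08 and 4.13 FPKM and GDF3 with means of 1.99, 0.845 and 1.42 FPKM, and 0 of 2 were called, nor did either have an unadjusted limma p under 0.05. BMP4 was called higher at 46h than at 0h with median-of-ratios scaling (0.64) and quantile normalization (1.0), and GDF3 was called higher at 46h than at 22h after quantile normalization (0.95) and without the libraries that stood apart (0.7). Of 13 secreted antagonists 4 passed, of which 0 were called by limma at 22h against 0h, where 1 had an unadjusted p under 0.05, and 1, FSTL3, was called lower in each comparison with 46h, beside 32.6% of all genes lower against 22h and 39.1% against 0h, and 9.87% and 16.8% higher. At 22h against 0h, 7.84% of all genes were called higher and 18.9% lower, beside 0 of the ligands and antagonists tested. FSTL3, a follistatin-like protein that binds activins, fell by 1.67 from 22h to 46h (limma adjusted p = 7.95e-05), from a mean of 5.61 to 1.07 FPKM. FST and BMPER, with means of 3.68 to 4.93 and of 14.3 to 17.9 FPKM over the stages, were not called in any comparison on the deposited scale. Quantile normalization called FST higher at 46h against 22h (0.7) and against 0h (0.63) and BMPER at 46h against 0h (0.65). FSTL1, the other antagonist tested, was not called on the deposited scale either, and was called higher at 46h than at 0h with median-of-ratios scaling (0.82), quantile normalization (1.23), a pseudocount of 0.1 (0.75) and as TPM without mitochondrially encoded genes (0.67), and without the libraries that stood apart (0.65). Quantile normalization also called FSTL1 higher at 22h against 0h and at 46h against 22h, by 0.62 in each. None of 7 proprotein convertases, the enzyme family that cleaves the precursors of these ligands, passed the filter, and FURIN was at most 0.19 FPKM in any library.

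KITLG, the ligand of KIT, was also measured in the denuded oocytes. Its means were 10.4, 9.2 and 12.2 FPKM at 0h, 22h and 46h, beside 7.02, 10.7 and 6.49 FPKM for KIT. The ranges of KITLG were 8.43 to 12.7, 7.65 to 11.4 and 9.77 to 15.8 FPKM. At 46h its lowest library (9.77 FPKM) barely exceeded the highest of KIT (9.74 FPKM). Levels of different genes also rest on the transcript lengths used to make the FPKM values. KITLG was not called in any of the 3 comparisons on the deposited scale (log2 fold changes -0.16, 0.36 and 0.2). It was called higher at 46h than at 22h, by 0.69 under median-of-ratios scaling and by 0.82 under quantile normalization, the latter also calling it higher than at 0h by 0.83, and its sign at 22h against 0h turned to 0.01 with quantile normalization. KITLG is also a granulosa cell marker, and the levels of the other markers are given above. VCAN, another of those markers, was higher at 46h than at 22h (log2 fold change 0.96, limma adjusted p = 0.00885), and STAR averaged 4.47, 3.5 and 4.63 FPKM and was not called on the deposited scale, but was called higher at 46h than at 22h with median-of-ratios scaling (0.62) and quantile normalization (0.84). The part of other cells in the level of KITLG was not tested.

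Of 21 genes of proximal KIT signalling, 13 passed the filter, with 3 called higher and 0 lower at 22h against 0h, 0 higher and 3 lower at 46h against 22h, and 5 higher and 2 lower at 46h against 0h. All genes tested gave 7.84% higher and 18.9% lower, 9.87% and 32.6%, and 16.8% and 39.1% in these comparisons. At 22h against 0h the count was 4 higher with median-of-ratios scaling, 5 as TPM without mitochondrially encoded genes and 6 after quantile normalization, beside 9.51%, 11.3% and 14.9% of all genes called higher. At 46h against 22h the count was 4 higher and 2 lower with median-of-ratios scaling, where SOS2 rose by 0.6, YES1 by 0.74, CBLB by 0.75 and CRKL by 0.77 and where 20.1% of all genes were called higher and 25.6% lower. Quantile normalization gave the same count there, beside 28.1% of all genes called higher and 19.1% lower. At 46h against 0h the count was 6 higher and 1 lower with median-of-ratios scaling and 9 higher and 2 lower with quantile normalization. These scalings called 29.2% and 41.0% of all genes higher, and 33.0% and 25.5% lower. As TPM the count was 3 higher and 2 lower, beside 14.3% and 41.8% of all genes. On the deposited scale the 13 genes had median log2 fold changes of 0.44, -0.22 and 0.1, beside 0, -0.26 and -0.25 for all genes tested. STAT3, a transcription factor downstream of several receptors, was 1.85-fold higher at 22h than at 0h (limma adjusted p = 0.0163), and the SRC-family kinase YES1 was 2.27-fold higher at 46h than at 0h (limma adjusted p = 5.85e-05). STAT5A averaged 6.96, 4.26 and 0.383 FPKM, and its fall of 1.88 from 22h to 46h had a limma adjusted p of 1.58e-05. The adaptor CRK, the most abundant of the list, averaged 900.4, 841.1 and 510.3 FPKM and was called lower at 46h in both comparisons, but in neither with median-of-ratios scaling. Its relative CRKL averaged 48.6, 60.0 and 80.9 FPKM and was 1.66-fold higher at 46h than at 0h.

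In the PI3K, AKT and TOR pathway downstream of KIT, 9 of 22 matched genes passed the filter. RHEB, the small GTPase that activates TOR complex 1, averaged 475.9, 930.6 and 1085.8 FPKM and was 1.96-fold higher at 22h than at 0h (limma adjusted p = 0.00101). RICTOR, a subunit of TOR complex 2, averaged 4.55, 5.7 and 11.2 FPKM and was 1.78-fold higher at 46h than at 22h (limma adjusted p = 0.00338). The catalytic subunit PIK3CA was lower at 46h than at 22h (log2 fold change -0.99, limma adjusted p = 0.0115), a call lost with quantile normalization, and the regulatory subunit PIK3R3 averaged 8.4, 11.3 and 9.6 FPKM and was not called on the deposited scale, but was called higher at 46h than at 0h after quantile normalization (0.82). In all, 2 of the 9 were called higher and 0 lower at 22h against 0h, and 2 higher and 2 lower in each of the comparisons with 46h, against the same shares of all genes as for the proximal genes. At 46h against 0h this became 4 higher and 0 lower with median-of-ratios scaling and 6 higher and 0 lower with quantile normalization, which called 29.2% and 41.0% of all genes higher and 33.0% and 25.5% lower. FOXO3, which holds back follicle activation, stayed under 1 FPKM in every library.

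**Figure D4:**
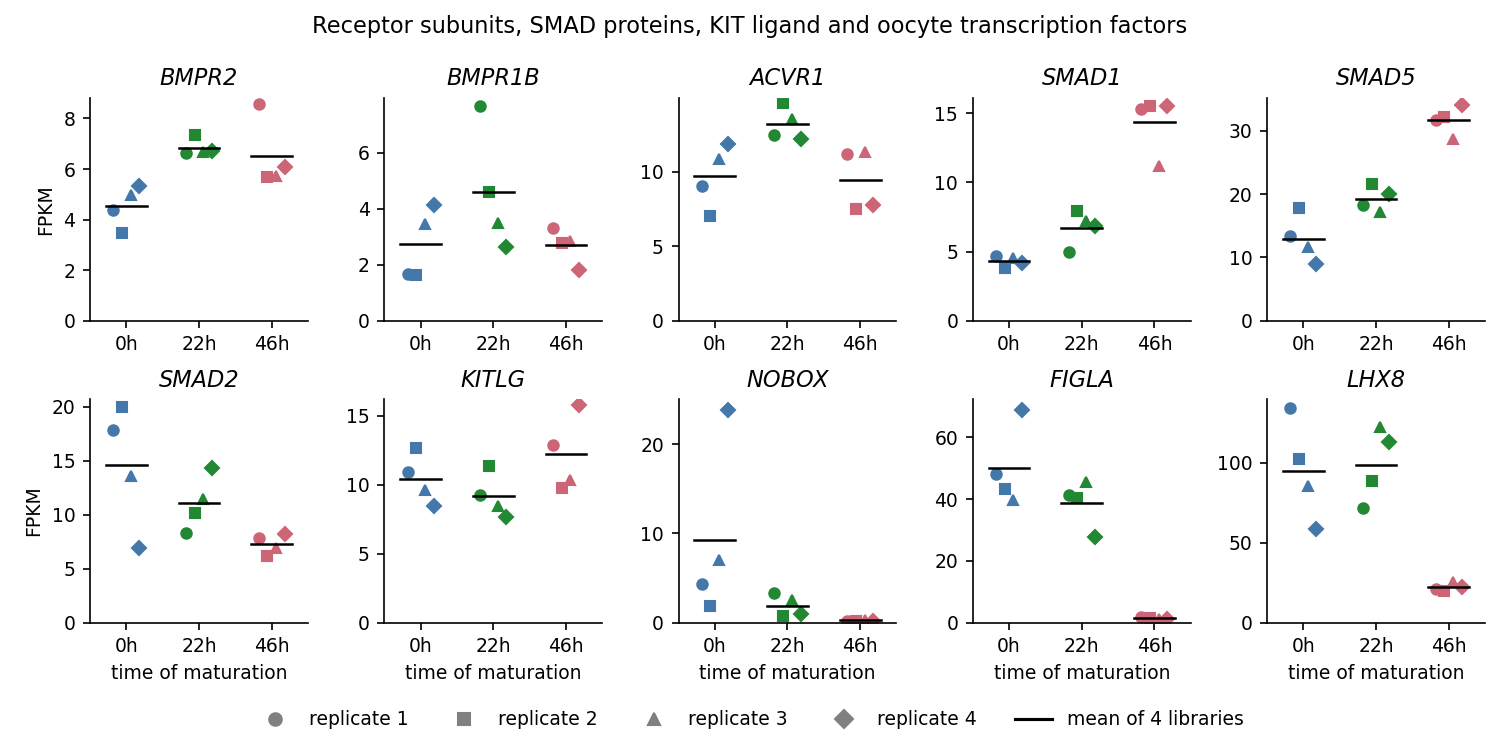
FPKM (linear axes from 0) of receptor subunits, SMAD proteins, KIT ligand and oocyte transcription factors in each library at 0h, 22h and 46h, with a point shape for each replicate and a bar for the mean of 4 libraries. SMAD1 and SMAD5 are highest at 46h, and FIGLA and LHX8 lie at 1.04 to 1.8 FPKM and 19.6 to 25.1 FPKM there.

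Oocyte transcription factors were examined because NOBOX is known in mice to bind an element in the Gdf9 promoter, and FIGLA acts on genes such as those of the zona pellucida through E-boxes. The range of FIGLA was 39.6 to 69.0 FPKM in the 0h libraries, 27.6 to 45.6 FPKM in those of 22h and 1.04 to 1.8 FPKM in those of 46h, a fall of 4.08 from 22h to 46h (limma adjusted p = 1.45e-09). LHX8 fell by 2.09 over the same interval (limma adjusted p = 5.52e-06). NOBOX measured 4.31, 1.8, 7.05 and 23.87 FPKM in replicates 1 to 4 of 0h, 0.75 to 3.31 FPKM in the 22h libraries and 0.2 to 0.31 FPKM in those of 46h, so that 0h replicate 4 carried much of the 0h level. It was already lower at 22h than at 0h (log2 fold change -1.46, limma adjusted p = 0.0372), with overlapping ranges. In fits that each left out 1 library the log2 fold change was -1.93 to -0.88, and the call was lost without 0h replicate 3, 0h replicate 4, 22h replicate 2, 22h replicate 4 or 46h replicate 2 (limma adjusted p 0.0507 to 0.108). Without 0h replicate 4 it was -0.88 (limma adjusted p = 0.0595), and without that library and 22h replicate 1 it was -1.11 and called. NR6A1, a nuclear receptor of germ cells described as a repressor of Gdf9 and Bmp15, was 2.22-fold higher at 22h than at 0h (limma adjusted p = 0.00891). Of 6 tested factors 1 was called higher and 1 lower at 22h against 0h, 0 higher and 3 lower at 46h against 22h, and 1 higher and 4 lower at 46h against 0h, beside 7.84% and 18.9%, 9.87% and 32.6%, and 16.8% and 39.1% of all genes.

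The 250 bases before each gene model were searched on both strands for the E-box CANNTG and the NOBOX element TAATTG or TAATTA. GDF9 had an E-box 167 bases and a NOBOX element 210 bases before the start of its model, which begins at the coding sequence, whereas BMP15 had neither in its window. BMP6 had 2 E-boxes and KIT had 1, with no NOBOX element. Of 20667 windows of RefSeq genes, 62.3% held an E-box, 9.91% a NOBOX element and 6.62% both. The stretch of the GDF9 window that holds them, chr2:135184602-135184671 on the minus strand of Sscrofa11.1, is shown with the NOBOX element and then the E-box in capitals.
GDF9 upstream stretch: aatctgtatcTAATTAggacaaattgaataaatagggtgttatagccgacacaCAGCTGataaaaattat
A match is a description of the letters and not evidence of binding. Any part of these factors in the fall of GDF9 was not tested.

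Other transcripts of the oocyte also fell by 46h, and GDF9 was compared with them as a list of oocyte markers. Of 8 tested, 1 was called higher and 6 lower at 46h against 22h, a comparison that called 9.87% of all genes higher and 32.6% lower. The count was 1 higher and 4 lower with median-of-ratios scaling, which called 20.1% of all genes higher and 25.6% lower, and 0 higher and 5 lower after quantile normalization, which called 28.1% higher and 19.1% lower. ZP3, of the zona pellucida, fell by 5.78 and ZAR1, a maternal-effect gene, fell by 3.76 (limma adjusted p = 1.11e-07 and 3.71e-07), so the fall of GDF9 by 4.27 lay between them. ZP2 and ZP4 fell by 1.81 and 1.4 (limma adjusted p = 4.6e-06 and 0.00424), beside 1.22 for BMP15. BTG4, which takes part in the clearance of maternal mRNA, rose instead, from a mean of 15605 to 28330 FPKM (limma adjusted p = 0.000156), a call lost with quantile normalization. ZAR1 had already declined at 22h relative to 0h (log2 fold change -2.54, limma adjusted p = 8.48e-05), in an interval over which GDF9 was not called.

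**Figure D5:**
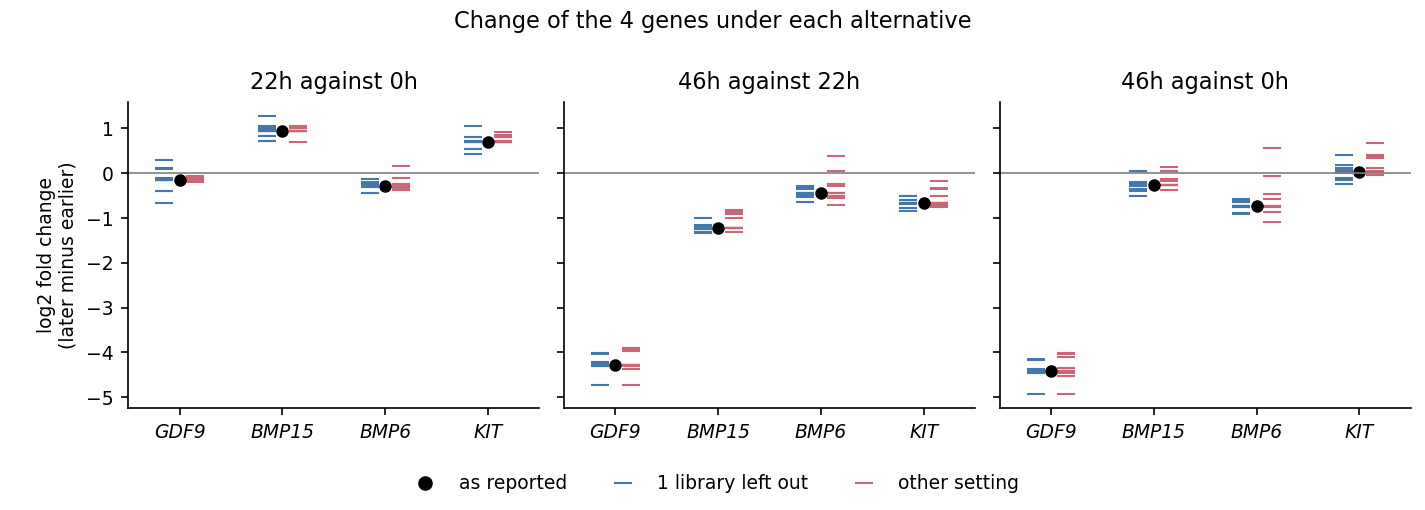
Log2 fold change (later minus earlier) of the 4 genes in each comparison as reported (points) and under each alternative (dashes), with fits that leave out 1 library on the left and other settings on the right of each point. GDF9 stays between -4.93 and -3.9 in the comparisons with 46h, whereas BMP6 runs from -1.08 to 0.56 between 0h and 46h.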

How the data were processed

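The authors lysed pools of denuded oocytes, amplified cDNA by SMART-Seq2 from an oligo-dT primer, trimmed paired reads (FastQC, Trim Galore), aligned them to Sscrofa11 with STAR and estimated expression with RSEM. The deposited values are FPKM per Ensembl gene and library with 2 decimals, and their sum was 697468 to 802184 per library. The deposited FPKM tables hold no counts, so depth is unknown and no counting interval is given. Estimated fragment numbers are not whole, so reads could not be recovered, and tests on counts were not run.

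Symbols came from an NCBI gene table, which named 15027 of 31908 identifiers and 6110 of 7013 tested. Members and lists were chosen with earlier results of these data known. BMP8A, BMP8B, GDF1, AKT1, RPS6, SOHLH1, DAZL, NPM2, CYP19A1, HSD3B1 and FOXL2 had no symbol match and are not analysed here, and some items are not reported here.

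Genes averaging 1 FPKM or more across the 12 libraries were tested on log2(FPKM + 1) with limma 3.58.1 (R 4.3.3), with a mean-variance trend, stage as the only factor and Benjamini-Hochberg adjustment over 7013 genes. The pseudocount shrinks the fold changes of low genes such as BMP6. A gene was called at an adjusted p under 0.05 and a fold change over 1.5. Genes under the filter, and the GDF9 to BMP15 ratio, had exact two-sided permutation tests. The fit was tested on simulated data. Besides the 4 members, named genes were a fixed set of partners and, in each list, the 3 most abundant tested and the called genes with the largest rise and fall. Searches for motifs, extremes within stages and correlations of deviations were chosen after values were seen.

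Gene models and sequences are from RefSeq on Sscrofa11.1. The authors name Sscrofa11, so coordinates describe the RefSeq models and were not used to make any value. Alternatives were another pseudocount, filter, scaling, set of stages and variance model, a replicate block, each library left out and, added after seeing the data, 2 libraries left out together and a GC trend removed.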

Additional observations from a re-analysis of the deposited data

Results flagged for a closer look

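Of 15 sets of 4 libraries examined (4 genes and the GDF9 to BMP15 ratio at 3 stages), 1 held a library far from the rest by Dixon's 95% criterion. This was BMP6 at 22h, where replicate 1 measured 3.61 FPKM and the gap to the next library was 0.876 of the whole range. The other 3 libraries measured 1.75 to 1.98 FPKM. Chance alone marks about 1 in 20 such sets. The same library was the highest of its stage in BMP15 and KIT and the lowest in GDF9, and the reason was not tested.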

How the results depend on the processing

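Of 285 refits of the 12 gene results, 249 kept their direction and their side of the threshold, 14 lost a call, 6 gained one and 16 changed sign. GDF9 was called lower at 46h in each of them (-4.73 to -3.9 against 22h, -4.93 to -4.02 against 0h). The cause of the changes below was not tested.

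Other settings moved these results. BMP15 at 22h against 0h was 0.95 with no filter, 0.7 with quantile normalization and 0.95 with only the 2 groups fitted, all without a call. At 46h against 0h it turned to 0.13 with median-of-ratios scaling, 0.06 with 2 libraries left out and 0.05 with the GC trend removed. BMP6 turned to 0.17, 0.39 and 0.56 with the GC trend removed in the 3 comparisons in time order, turned to 0.05 at 46h against 22h with quantile normalization, and at 46h against 0h lost its call with median-of-ratios scaling (-0.47), quantile normalization (-0.06) and 2 libraries left out (-0.58). It has no value with a mean of at least 5 FPKM required. KIT gained a call at 22h against 0h with quantile normalization (0.85) and with 2 libraries left out (0.91), gained one at 46h against 22h with only those groups fitted (-0.66), and turned to -0.05 at 46h against 0h as TPM. Genes called in the lists at 22h against 0h went from 11 to 19 of 57 with quantile normalization, beside 1873 to 2174 of all 7013 genes. Genes called at 46h against 0h went from 3922 of 7013 to 2546 of 4144 with a mean of at least 5 FPKM. The share of calls that were higher went from 29.4% to 48.2%, from 23.3% to 59.5% and from 30.1% to 61.7% with quantile normalization, and to 34.7%, 44.0% and 46.9% with median-of-ratios scaling.

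The labels do not say whether libraries with the same replicate number belong together. Of 12 pairs with the same number, 3 had a correlation of deviations over 0.1 (range -0.47 to 0.38). These 3 were all at 46h against 22h, where the range was 0.01 to 0.38. Such values do not exclude a pairing. With the replicate block the log2 ratio of GDF9 to BMP15 kept its differences of -3.08 and -4.19, with an adjusted exact sign-flip p of 0.188, since 4 pairs cannot give a p under 0.125. The block changed no call of a member.

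Leaving out each library in turn, GDF9 ranged from -0.66 to 0.3, -4.73 to -4.02 and -4.93 to -4.15 in the 3 comparisons in time order, changing sign at 22h against 0h without 0h replicate 1 (0.12), 0h replicate 2 (0.1) or 22h replicate 1 (0.3). BMP15 ranged from 0.73 to 1.28, -1.33 to -1.0 and -0.5 to 0.06, the last changing sign without 0h replicate 4. BMP6 ranged from -0.45 to -0.13, -0.64 to -0.28 and -0.92 to -0.58, gaining a call at 46h against 22h without 46h replicate 3 (-0.64) and losing it at 46h against 0h without 0h replicate 4 (-0.58), 46h replicate 2 (-0.64) or 46h replicate 4 (-0.61). KIT ranged from 0.43 to 1.06, -0.85 to -0.51 and -0.23 to 0.4, with a changed sign in the last without 0h replicate 1 (-0.11), 0h replicate 2 (-0.23), 46h replicate 1 (0) or 46h replicate 3 (-0.16). The ratio ranged from -1.94 to -0.43, -3.76 to -2.74 and -5.02 to -3.71. The list genes called at 22h against 0h ranged from 10 to 17 of 57, the latter without 0h replicate 4. All genes called in that comparison ranged from 1546 to 2172 of 7013.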
